A study of Mus musculus with 9 samples.

Results

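Transcript levels of the proteasome family were examined in mouse hippocampus (strain C57BL/6, age 12 to 14 weeks), on Affymetrix arrays loaded with 6 µg of total RNA each. The family was taken as every gene whose symbol begins with Psma, Psmb, Psmc or Psmd and a number and that has a probe set naming it alone, which gave 39 of the 18820 genes measured. Psma4 is not among them, because its probe set also names another gene. One gene taken in by its symbol, Psmc3ip, encodes a partner protein of meiotic recombination and not a proteasome subunit. The 9 arrays form 3 groups of 3, each array labelled a biological replicate. The Maresin 1 group received Maresin 1, a macrophage product of docosahexaenoic acid that acts as a lipid mediator, before a tibia fracture operation, the surgery group had the operation without it, and the control group is labelled only as control. Hippocampi of the operated mice were collected at 72 h after surgery, and no transgene or deletion is named for any group. The series title asks whether Maresin 1 lessens the brain inflammation that follows surgery.

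The proteasome is the protease that degrades proteins marked with ubiquitin chains. Its barrel-shaped core particle is built from outer rings of alpha subunits, which gate the entrance, and inner rings of beta subunits, some of which carry the proteolytic sites. The regulatory particle caps the barrel: its lid and base bind ubiquitinated proteins, remove the ubiquitin and, through a ring of ATPases, unfold the protein and thread it into the core. Interferon gamma and other inflammatory signals can exchange the standard catalytic beta subunits for immunoproteasome subunits, which produce peptides suited to display on MHC class I molecules. In neurons, proteasomes also turn over synaptic proteins.

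Levels below are log2 of the quantile-normalised signal plus 16. Of the 39 genes, 37 lay above 5.86, the 95th percentile of the mean levels of 990 olfactory receptor genes that the brain hardly expresses, and the other 2 were Psma8 and Psmb11. All 8 measured markers of hippocampal neurons also lay above it. The range over the 9 arrays had a median of 0.28 among the 39 genes, and Psma8 alone ranged over more than 1.5-fold. Among all 18820 genes the median range was 0.34, but these include dim genes, and no median over genes of like level was taken. Deposited median signals differed 1.85-fold between arrays before normalisation. Control replicates 2 and 3 stood apart from the other arrays in transcripts of the choroid plexus, an epithelium beside the hippocampus. The mean deviation of its 11 measured markers from their 9-array means was -0.76 to -0.62 in the Maresin 1 arrays, -0.91 to -0.74 in the surgery arrays, and -0.96, 2.63 and 2.98 in control replicates 1, 2 and 3. Most differences from control are therefore also given with both left out, which leaves control replicate 1, assumed to vary like the arrays of the other groups, as the only control. In such bulk tissue, fewer cells of a type and less RNA per cell cannot be told apart.

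Both genes of the family that passed the test were higher in the Maresin 1 group than in control. They were Psmd14, the lid enzyme that cuts ubiquitin chains off substrates before their degradation, and Psma1, a subunit of the alpha ring. The family was taken up with these differences known, so they are given as a description, and their adjusted p over the whole table is no independent support. Psmd14 had levels of 10.57, 10.66 and 10.63 in the Maresin 1 arrays, 10.47, 10.46 and 10.44 in the surgery arrays, and 10.31, 10.14 and 10.34 in the control arrays. Every Maresin 1 array was above every surgery array, and every surgery array was above every control array. The Maresin 1 group averaged 10.62 ± 0.05, the surgery group 10.46 ± 0.02 and the control group 10.26 ± 0.10 (SD, n = 3 each). Psmd14 rose by 0.36 (SE 0.06) on the log2 scale in the Maresin 1 group against control, a 1.28-fold difference (limma, adjusted p = 0.0382).

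Psma1 had levels of 10.56, 10.63 and 10.59 in the Maresin 1 arrays, 10.45, 10.50 and 10.40 in the surgery arrays, and 10.27, 10.18 and 10.32 in the control arrays. Its groups stood in the same order without overlap. Means were 10.59 ± 0.03 in the Maresin 1 group, 10.45 ± 0.05 in the surgery group and 10.26 ± 0.07 in the control group (SD, n = 3 each). Psma1 rose by 0.33 (SE 0.05), 1.26-fold, in the Maresin 1 group against control (limma, adjusted p = 0.0382). Over all genes, 0.446% had every Maresin 1 array above every surgery array and every surgery array above every control array. These were 84 genes, and Psmd14 and Psma1 were the 2 of the family among them.

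Both calls rest on the normalisation and on a small margin. In the deposited signals Psmd14 read 1472, 1483 and 1518 in the Maresin 1 arrays, 1008, 1661 and 1595 in the surgery arrays, and 1726, 843 and 1161 in the control arrays. Before normalisation the groups thus overlapped, with control replicate 1 the highest and control replicate 2 the lowest. The call of either gene was kept without control replicate 1 or control replicate 3, and was lost without control replicate 2, any surgery array or any Maresin 1 array, with adjusted p between 0.0605 and 0.209 in limma. Leaving out a surgery array does not change the difference between Maresin 1 and control, and alters only how its error is estimated. Without both control replicates 2 and 3 the differences were 0.31 for Psmd14 (limma, adjusted p = 0.146) and 0.32 for Psma1 (adjusted p = 0.144).

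**Figure D1:**
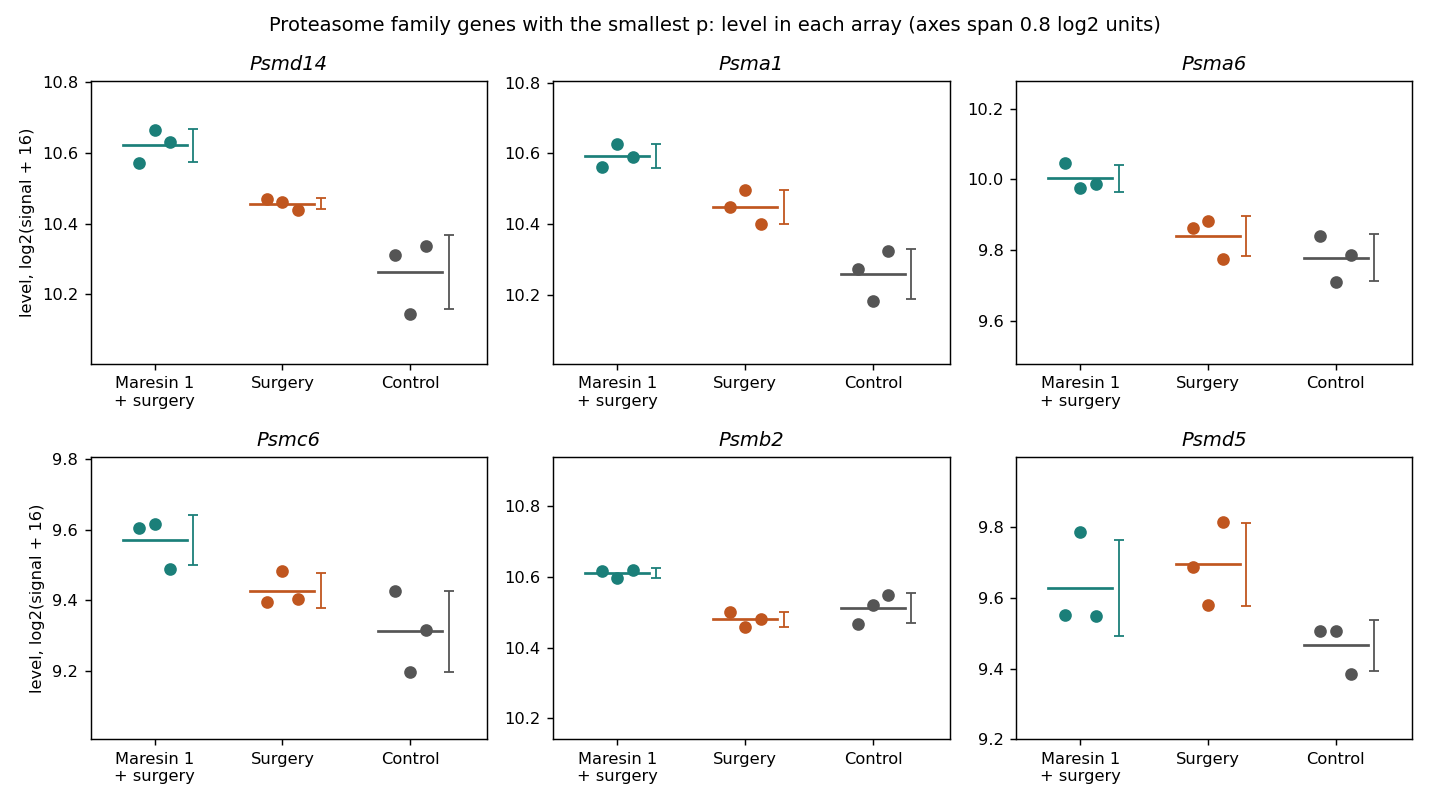
Level, log2(signal + 16), of Psmd14, Psma1, Psma6, Psmc6, Psmb2 and Psmd5 in each array (points) of the Maresin 1, surgery and control groups, with group mean (line) and SD (bar), on axes that each span 0.8 log2 units. The 3 groups of Psmd14 and of Psma1 stand apart in descending order, with means of 10.62, 10.46 and 10.26 for Psmd14.

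The start regions of Psmd14, Psma1 and Psmc6, an ATPase of the base, are shown because these are the called genes and the regulatory ATPase with the smallest p. They are the 250 bases before the RefSeq start on GRCm38.p6, at chr2:61711444-61711693 on the plus strand for Psmd14, chr7:114276117-114276366 on the minus strand for Psma1 and chr14:45329574-45329823 on the plus strand for Psmc6. Each is written 5′ to 3′ along its gene. Capitals mark matches, on either strand, to the CCAAT box (CCAAT, or ATTGG when reversed), the core letters of ETS factor sites (CGGAAG, or CTTCCG) and the core of the antioxidant response element (TGACNNNGC, here reversed), the element bound by the transcription factor encoded by Nfe2l1.
Psmd14: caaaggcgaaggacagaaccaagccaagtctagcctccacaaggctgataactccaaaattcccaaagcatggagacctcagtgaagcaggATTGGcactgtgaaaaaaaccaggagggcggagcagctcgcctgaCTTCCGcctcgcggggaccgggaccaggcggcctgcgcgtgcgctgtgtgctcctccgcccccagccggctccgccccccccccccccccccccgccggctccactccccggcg
Psma1: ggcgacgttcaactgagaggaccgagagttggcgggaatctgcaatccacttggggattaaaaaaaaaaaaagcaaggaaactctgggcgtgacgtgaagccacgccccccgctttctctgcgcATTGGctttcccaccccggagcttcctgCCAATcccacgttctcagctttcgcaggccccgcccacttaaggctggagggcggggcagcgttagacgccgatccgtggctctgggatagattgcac
Psmc6: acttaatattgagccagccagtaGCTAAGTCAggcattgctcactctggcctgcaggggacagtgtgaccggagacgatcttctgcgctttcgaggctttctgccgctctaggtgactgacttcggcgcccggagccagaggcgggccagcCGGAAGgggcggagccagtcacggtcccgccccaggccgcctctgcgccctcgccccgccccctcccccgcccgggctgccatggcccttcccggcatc
The window of Psmd14 holds a CCAAT box at 159 bases and an ETS core at 114 bases before the start, and that of Psma1 holds CCAAT boxes at 126 and 98 bases. The window of Psmc6 holds the antioxidant core at 227 bases and an ETS core at 99 bases. Among the 34 start regions of the 32 family genes searched, the ETS core was found in 17, or 50%, against 13.6% of all 32851 start regions. The CCAAT box was in 14, or 41.2%, against 33.8% of all, and the antioxidant core in 5, those of Psmb5, Psmb6, Psmc6, Psmd9 and Psmd12, or 14.7% against 10.2%. The core of the interferon-stimulated response element, GAAA followed after 2 bases by GAAA, was in 3, those of Psmb3, Psmd4 and Psmd9, or 8.82% against 2.98%. A match shows only that the letters are present, and no motif search was extended beyond these windows. Start regions were searched for 32 of the 39 family genes. A gene searched without a match lacks the letters in its window, and a gene not searched is not shown to lack them. Whether Psmb8 and Psmb10, which had no match, were among the genes searched is not given here. The family search also left out a chromosome that the share of all start regions kept. The ETS matches include Psmc3ip and Psmb11, and no share over start regions of like base content was taken.

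The Maresin 1 group was set against control over the whole family. Of all genes, 0.0850% passed the adjusted threshold in this comparison, and 2 of the 39 did. At an unadjusted p under 0.05 in limma, 8 of the 39 were higher and 0 lower, with 5.87% of all genes higher and 5.61% lower. The 8 were Psma1, Psma6, Psmb2, Psmb3, Psmc6, Psmd10, Psmd13 and Psmd14. The groups stood apart for 12 members that were higher and 1 that was lower, with 7.60% of all genes higher and 6.71% lower in this way, and 30 of the 39 had a difference above 0, with 49.0% of all genes. These counts follow from the contrast that led to the family, so nothing is read from them. The median difference was 0.08 over the 39 genes and -0.00 over all genes.

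Psma6, another subunit of the alpha ring, had levels of 10.05, 9.97 and 9.99 in the Maresin 1 arrays, 9.86, 9.88 and 9.77 in the surgery arrays, and 9.84, 9.71 and 9.78 in the control arrays. The Maresin 1 arrays were above all others, and surgery and control overlapped. The difference from control was 0.22 (SE 0.05; limma, adjusted p = 0.146). Psmc6 had levels of 9.61, 9.62 and 9.49 in the Maresin 1 arrays, 9.39, 9.48 and 9.40 in the surgery arrays, and 9.43, 9.20 and 9.32 in the control arrays. Its Maresin 1 arrays were the 3 highest, and the lowest of them lay close to surgery replicate 2. The difference from control was 0.26 (SE 0.07; limma, adjusted p = 0.171), and without control replicate 1 it was called. With control replicate 1 as the only control the difference was 0.14 for Psmc6 (adjusted p = 0.639) and 0.16 for Psma6 (adjusted p = 0.534).

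Psmd10, also called gankyrin, is a chaperone that helps assemble the base, and its levels were 8.53, 8.71 and 8.74 in the Maresin 1 arrays, 8.63, 8.58 and 8.37 in the surgery arrays, and 8.47, 8.31 and 8.48 in the control arrays. The Maresin 1 arrays lay above the control arrays and overlapped the surgery arrays. The difference from control was 0.24 (SE 0.09; limma, adjusted p = 0.297). Psmb3, a structural beta subunit, and Psmd13, a lid subunit, each differed by 0.12 from control without overlap between the groups (limma, adjusted p = 0.41 for Psmb3 and 0.383 for Psmd13). Psmd7, the inactive lid partner of Psmd14, was the member whose Maresin 1 arrays all lay below its control arrays, by 0.05 (SE 0.05; limma, adjusted p = 0.773). With control replicates 2 and 3 left out the differences from control were 0.19 for Psmd10, 0.15 for Psmb3, 0.13 for Psmd13 and -0.09 for Psmd7.

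**Figure D2:**
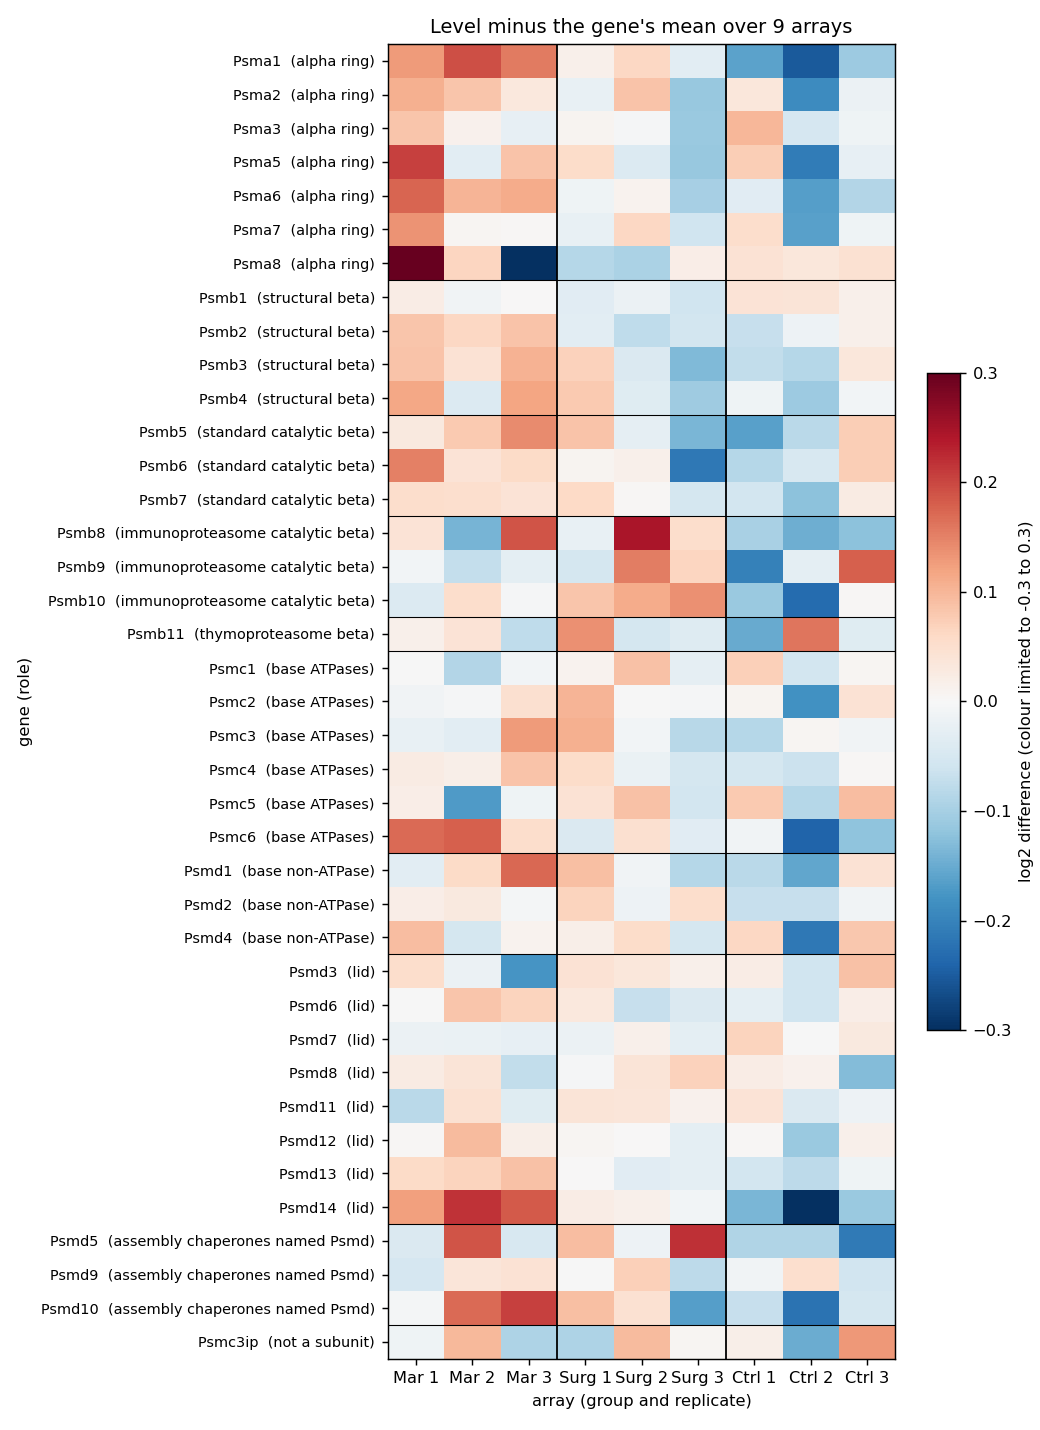
Level of each of the 39 genes (rows, grouped by role) in each of the 9 arrays (columns: Mar, Maresin 1; Surg, surgery; Ctrl, control) minus the mean of that gene over the arrays, on a log2 colour scale limited to -0.3 and 0.3. Control replicate 2 is the lowest array for 20 of the 39 genes, and the rows of Psma1 and Psmd14 step down from the Maresin 1 arrays to the control arrays.

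Between the Maresin 1 group and the surgery group, the directions of the quantile-normalised core particle levels were as follows. All 7 alpha genes, all 4 structural beta genes and all 3 standard catalytic genes were higher in the Maresin 1 group, whereas the 3 immunoproteasome genes were lower. One of the alpha genes, Psma8, lay below the olfactory receptor level. No difference between types of subunit was tested, and no single gene passed the test: 0 of the 39 and 0.00% of all genes had an adjusted p under 0.05 in limma, and 4 of the 39 were higher at an unadjusted p under 0.05, against 5.66% of all genes in either direction, 1.96% higher and 3.70% lower. The arrays of the groups stood apart for 8 members that were higher and 1 that was lower, with 4.79% of all genes standing apart upward and 8.20% downward. In all, 25 of the 39 were higher, against 41.7% of all genes.

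The alpha genes differed by 0.06 to 0.16 with a median of 0.09, the structural beta genes by a median of 0.10 and the standard catalytic genes by a median of 0.11. The immunoproteasome genes had a median of -0.09, and the 17 genes of the regulatory particle one of 0.01, with 9 of them higher. The median of all genes was -0.02. These directions depend on the scaling, because when arrays were scaled to one median the median of all genes was -0.09 and 3 of those 14 alpha, structural and standard catalytic genes were above 0, 11 of them above the median of all genes. With no normalisation 13 of the 14 stayed above 0, and 1 of the 3 immunoproteasome genes was higher. The values of this comparison and of the one against control share the Maresin 1 arrays.

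The 4 members with the smallest p in this comparison were Psmb2, Psmd14, Psma6 and Psma1. Psmb2, a structural beta subunit, had levels of 10.62, 10.60 and 10.62 in the Maresin 1 arrays, 10.50, 10.46 and 10.48 in the surgery arrays, and 10.47, 10.52 and 10.55 in the control arrays. The Maresin 1 arrays lay above the other 6, and surgery and control overlapped. The Maresin 1 group was higher than surgery by 0.13 (SE 0.04; limma, adjusted p = 0.859). The differences from surgery were 0.17 (SE 0.06) for Psmd14, 0.16 (SE 0.05) for Psma6 and 0.14 (SE 0.05) for Psma1, all with the same adjusted p of 0.859 in limma. Psmc6 and Psmb6 also separated, by 0.14 (SE 0.07) and 0.15 (SE 0.07), as did Psmd13 by 0.09 and Psmb1 by 0.04. Psmb10 was the member that separated in the other direction, at -0.11 (SE 0.07; limma, adjusted p = 0.878). Scaled to one median, the differences were -0.00 for Psmd14, -0.02 for Psma1 and -0.03 for Psmb2, and 0.09, 0.07 and 0.06 above the median of all genes.

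**Figure D3:**
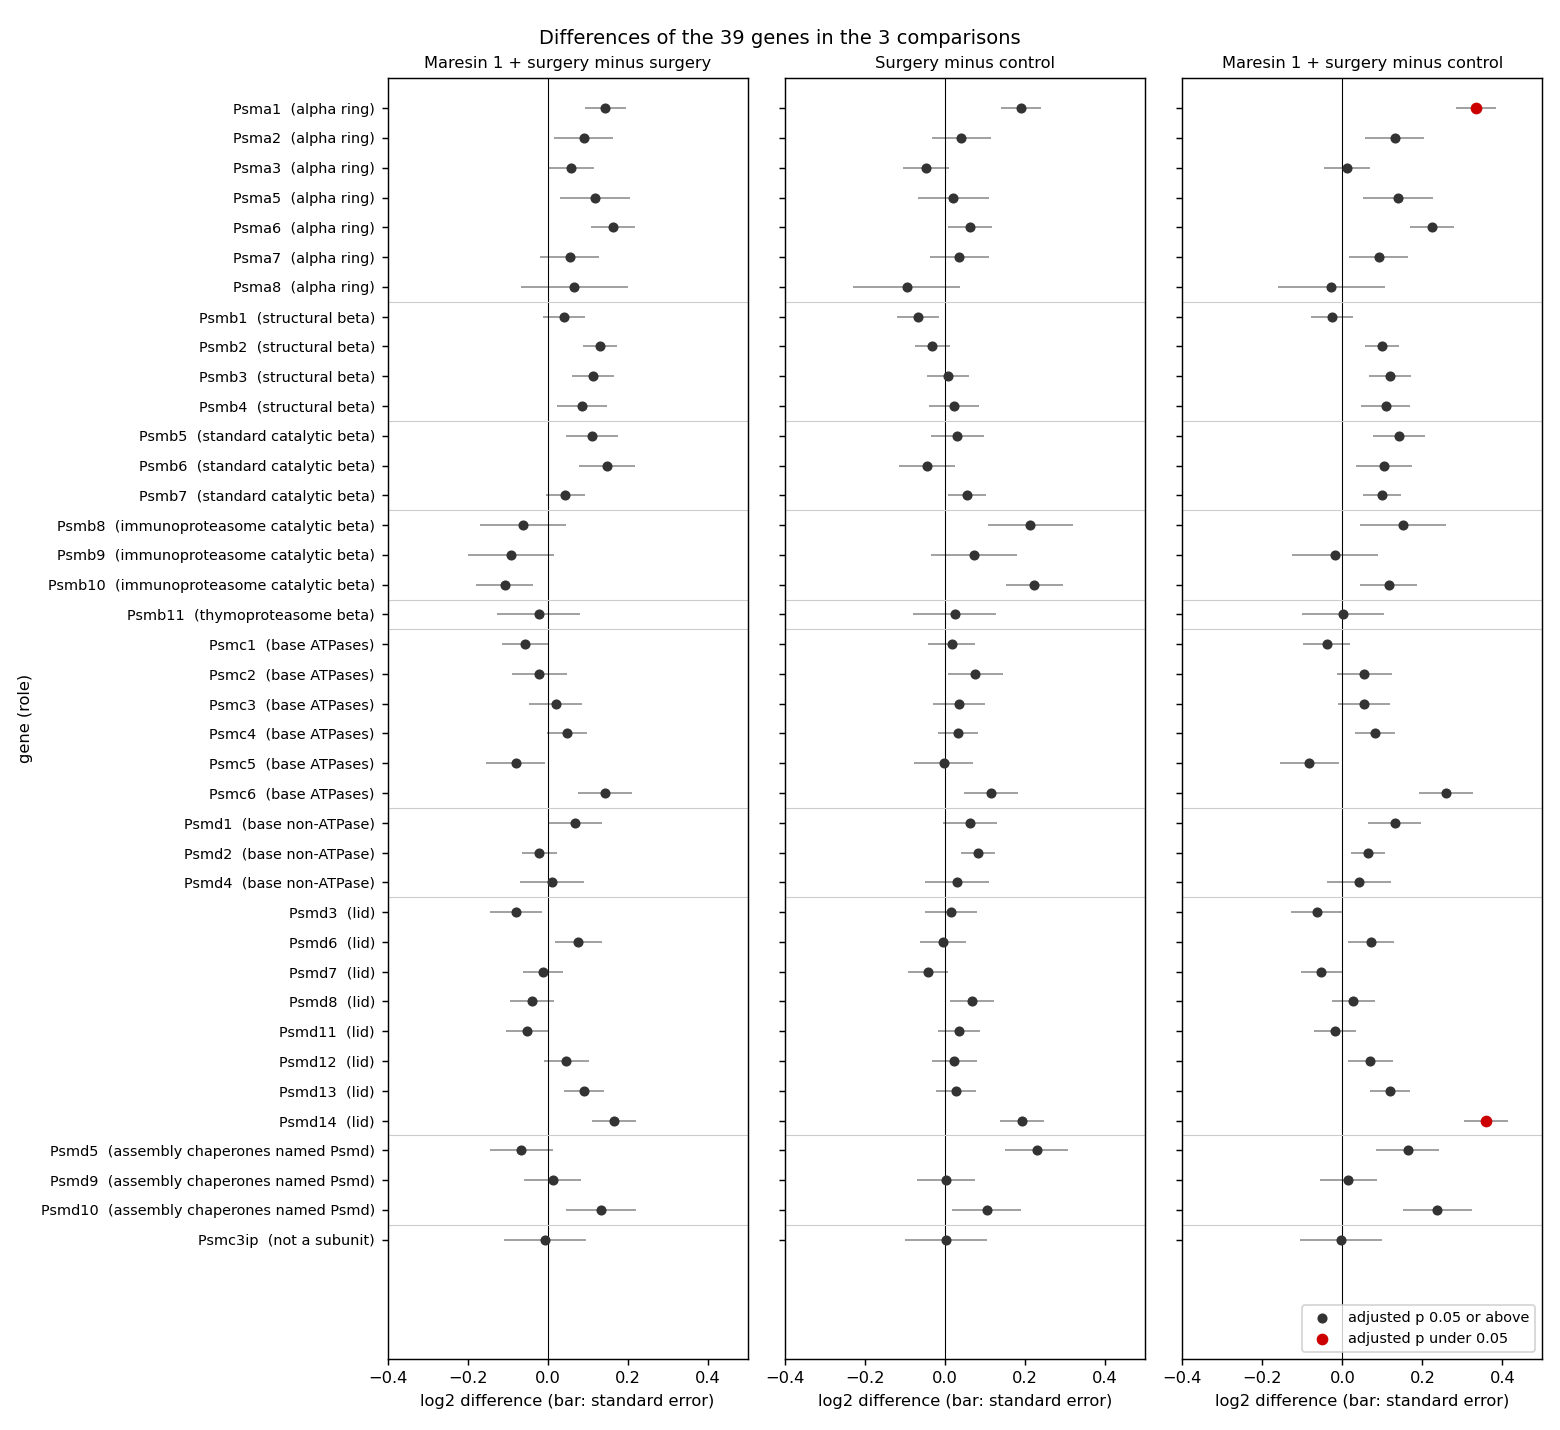
Log2 difference of each of the 39 genes (point) with its standard error (bar), for Maresin 1 with surgery minus surgery, surgery minus control, and Maresin 1 with surgery minus control. The left panel shows the 14 alpha, structural and standard catalytic genes to the right of 0 and the 3 immunoproteasome genes to its left, although 3 of the 14 stay above 0 when arrays are scaled to one median, and the red points in the right panel are Psma1 and Psmd14, the genes with an adjusted p under 0.05.

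Between the surgery and control groups the differences of the family were small apart from a few genes. None of the 39 and 0.00% of all genes passed the adjusted threshold in limma, and 4 of the 39, Psma1, Psmd14, Psmb10 and Psmd5, were higher at an unadjusted p under 0.05, against 3.90% of all genes higher and 2.31% lower. The arrays stood apart for 5 members that were higher and 2 that were lower, against 7.70% and 3.82% of all genes. The median was 0.03 over the 39 genes and 0.02 over all genes, and 31 of the 39 were higher against 58.3% of all genes. When arrays were scaled to one median, the family median was 0.19 and that of all genes 0.10. Without both control replicates 2 and 3 the family median was 0.01 and that of all genes 0.03, the reverse of the order with all controls.

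Psmd5, a chaperone that holds base subunits during assembly, had levels of 9.55, 9.79 and 9.55 in the Maresin 1 arrays, 9.69, 9.58 and 9.82 in the surgery arrays, and 9.51, 9.51 and 9.38 in the control arrays. All arrays of both operated groups were above the control arrays, and Maresin 1 and surgery overlapped. Surgery was higher than control by 0.23 (SE 0.08; limma, adjusted p = 0.708). The differences of surgery from control were 0.19 for Psmd14 (SE 0.06; limma, adjusted p = 0.64) and 0.19 for Psma1 (SE 0.05; adjusted p = 0.63). With control replicate 1 as the only control the differences were 0.19 for Psmd5, 0.15 for Psmd14 and 0.18 for Psma1. Psmb1 was lower in surgery without overlap, by 0.07 (SE 0.05), and Psma8 by 0.10 (SE 0.13). The other probe set of Psmb1 read 0.01 for surgery minus control, with overlapping groups. Psma8 lies at the level of the olfactory receptor genes.

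The catalytic subunits were followed in pairs, each immunoproteasome subunit with the standard subunit whose place it takes. Psmb10 replaces Psmb7, the subunit with trypsin-like activity. Psmb10 had levels of 8.55, 8.64 and 8.59 in the Maresin 1 arrays, 8.68, 8.70 and 8.73 in the surgery arrays, and 8.48, 8.36 and 8.60 in the control arrays. The 3 surgery arrays were the 3 highest of the 9, and the Maresin 1 and control arrays overlapped. Means were 8.59 ± 0.05 in the Maresin 1 group, 8.70 ± 0.03 in surgery and 8.48 ± 0.12 in control (SD, n = 3 each). Surgery differed from control by 0.22 (SE 0.07; limma, adjusted p = 0.68), and by 0.22 without both control replicates 2 and 3. Psmb7 had levels of 10.92, 10.91 and 10.90 in the Maresin 1 arrays, 10.92, 10.87 and 10.81 in the surgery arrays, and 10.81, 10.74 and 10.89 in the control arrays. Surgery overlapped both other groups, and the Maresin 1 arrays lay above the control arrays by 0.10 on average (SE 0.05; limma, adjusted p = 0.463), and by 0.10 without both control replicates 2 and 3.

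Psmb8 replaces Psmb5, the subunit with chymotrypsin-like activity. Psmb8 had levels of 6.00, 5.82 and 6.15 in the Maresin 1 arrays, 5.94, 6.21 and 6.01 in the surgery arrays, and 5.86, 5.81 and 5.84 in the control arrays. The surgery arrays lay above the control arrays, by 0.21 (SE 0.11; limma, adjusted p = 0.796) and by 0.19 without both control replicates 2 and 3, and the Maresin 1 arrays overlapped both. The difference was 0.14 without surgery replicate 2, 0.09 with no normalisation and 0.12 with 64 as the added constant in place of 16. The control arrays of Psmb8 lay at or near the olfactory receptor level of 5.86. Psmb5 had levels of 11.63, 11.68 and 11.74 in the Maresin 1 arrays, 11.68, 11.57 and 11.46 in the surgery arrays, and 11.43, 11.52 and 11.67 in the control arrays. All 3 of its groups overlapped, with differences of 0.11 (SE 0.07) for Maresin 1 against surgery and 0.03 (SE 0.07) for surgery against control, which was 0.14 without both control replicates 2 and 3.

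Psmb9 replaces Psmb6, the subunit with caspase-like activity. Psmb9 had levels of 6.26, 6.19 and 6.23 in the Maresin 1 arrays, 6.21, 6.42 and 6.33 in the surgery arrays, and 6.06, 6.23 and 6.44 in the control arrays, and its groups overlapped. Surgery differed from control by 0.07 (SE 0.11), and by 0.26 without both control replicates 2 and 3. Psmb6 had levels of 10.10, 9.99 and 10.00 in the Maresin 1 arrays, 9.95, 9.96 and 9.73 in the surgery arrays, and 9.86, 9.90 and 10.02 in the control arrays. The Maresin 1 arrays of Psmb6 lay just above the surgery arrays, and control overlapped both.

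**Figure D4:**
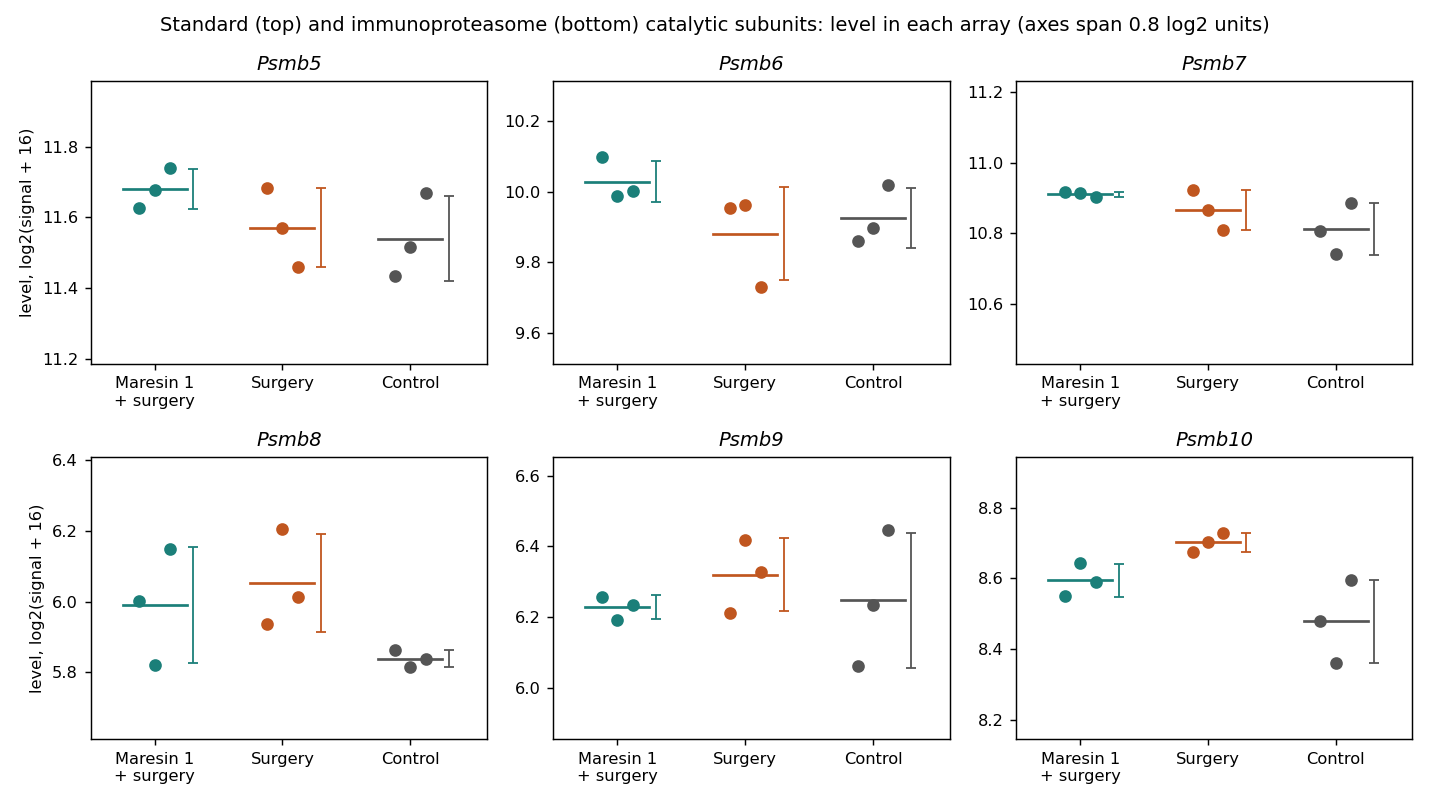
Level, log2(signal + 16), of the standard catalytic subunits (top row) and of the immunoproteasome subunits that take their places (bottom row) in each array (points) of the Maresin 1, surgery and control groups, with group mean (line) and SD (bar); each axis spans 0.8 log2 units. The surgery arrays of Psmb10 are the 3 highest of the 9, at 8.68 to 8.73.

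The change of each pair between groups was read as the immunoproteasome level minus the standard level within an array. For Psmb10 minus Psmb7 this was -2.37, -2.27 and -2.31 in the Maresin 1 arrays, -2.25, -2.16 and -2.08 in the surgery arrays, and -2.33, -2.38 and -2.29 in the control arrays. The surgery arrays lay above all 6 others, with group means of -2.32 ± 0.05 for Maresin 1, -2.16 ± 0.08 for surgery and -2.33 ± 0.05 for control (SD, n = 3 each). For Psmb9 minus Psmb6 the Maresin 1 arrays, at -3.84, -3.80 and -3.77, lay below the surgery arrays, at -3.74, -3.54 and -3.40, and the control arrays, at -3.80, -3.66 and -3.58, overlapped both. For Psmb8 minus Psmb5 the groups overlapped, with a mean difference of -0.17 for Maresin 1 against surgery and 0.18 for surgery against control. In all 3 pairs the mean difference was below 0 for Maresin 1 against surgery, at -0.15 to -0.24, and above 0 for surgery against control, at 0.12 to 0.18. The pairs combine gene values given above and are no further observation. For Maresin 1 against surgery, Psmb5, Psmb6 and Psmb7 differed by 0.11, 0.15 and 0.04. Psmb8, Psmb9 and Psmb10 differed by -0.06, -0.09 and -0.11. Psmb8 and Psmb9 averaged 5.96 and 6.26 over the 9 arrays, against the olfactory receptor level of 5.86. With control replicate 1 as the only control, surgery minus control was 0.16 for Psmb10 minus Psmb7, 0.23 for Psmb9 minus Psmb6 and 0.05 for Psmb8 minus Psmb5. Both comparisons share the surgery arrays, so the opposite signs are not separate observations. These are changes between groups and not ratios of amounts, since the probes of different genes differ in brightness.

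Immunoproteasome genes are active in endothelium, microglia and leukocytes, so markers of these cells were read over the same arrays. The mean deviation of 6 of 6 endothelial markers was 0.30, -0.13 and 0.18 in the Maresin 1 arrays, 0.16, 0.15 and 0.10 in the surgery arrays, and -0.23, -0.23 and -0.30 in the control arrays. All 6 markers were higher in surgery than in control, against 58.3% of all genes, with a median difference of 0.37 that was 0.35 without both control replicates 2 and 3, and none passed the adjusted threshold in limma. The 8 measured microglial markers had a mean deviation of -0.08 to 0.17 in the Maresin 1 arrays, -0.01 to 0.13 in the surgery arrays and -0.08 to -0.03 in the control arrays. Of 6 measured leukocyte markers, 2 lay above the olfactory receptor level. In surgery against control, 7 of the 8 microglial markers were higher, with a median difference of 0.11. Of the 6 leukocyte markers 5 were higher there, with a median of 0.07. Without both control replicates 2 and 3 these medians were 0.12 and 0.21. The 3 measured red cell markers had a mean deviation of 0.18, -0.24 and -0.08 in the Maresin 1 arrays, 0.08, 0.50 and 0.10 in the surgery arrays, and -0.14, -0.22 and -0.18 in the control arrays. All 3 were higher in surgery than in control without overlap, as were 7.70% of all genes. Alas2, an enzyme of heme synthesis, differed by 0.95 (SE 0.25; limma, adjusted p = 0.63), and the other 2 red cell markers lay below the olfactory receptor level. The part of these cells in the values of Psmb8, Psmb9, Psmb10, Psmd14 and Psma1 was not tested.

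Within the regulatory particle the differences varied from gene to gene, and no difference between its subunits was tested. The 6 base ATPases, which form the unfolding ring, differed between Maresin 1 and control by a median of 0.05, from -0.08 for Psmc5 to 0.26 for Psmc6, and these were -0.13 and 0.14 without both control replicates 2 and 3. Psmc5 had levels of 9.06, 8.87 and 9.02 in the Maresin 1 arrays, 9.08, 9.12 and 8.98 in the surgery arrays, and 9.11, 8.95 and 9.13 in the control arrays, with overlap throughout. Psmc4 lay higher in the Maresin 1 arrays than in control without overlap, by 0.08 (SE 0.05; limma, adjusted p = 0.59), and by 0.10 without both control replicates 2 and 3. Psmc1, Psmc2 and Psmc3 differed by -0.04, 0.06 and 0.05, with overlapping groups.

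The base scaffolds Psmd1 and Psmd2 and the ubiquitin receptor Psmd4 differed from control by 0.13, 0.06 and 0.04 in the Maresin 1 group, and Psmd2 separated the groups. With control replicates 2 and 3 left out these were 0.15, 0.08 and -0.05. The 8 lid genes had a median difference of 0.05, with Psmd14 at 0.36 and the next, Psmd13, at 0.12. The other 6, which are Psmd3, Psmd6, Psmd7, Psmd8, Psmd11 and Psmd12, lay between -0.06 and 0.07, and between -0.09 and 0.08 without both control replicates 2 and 3. In the alpha ring Psma1 at 0.33 was followed by Psma6 at 0.22, and Psma2, Psma3, Psma5, Psma7 and Psma8 lay between -0.03 and 0.14, all with overlapping groups. Without both control replicates 2 and 3 these 5 lay between -0.07 and 0.04. Psma5 had levels of 8.77, 8.53 and 8.65 in the Maresin 1 arrays, 8.62, 8.52 and 8.45 in the surgery arrays, and 8.64, 8.35 and 8.54 in the control arrays. Psmb4, a structural beta subunit, had levels of 10.54, 10.39 and 10.55 in the Maresin 1 arrays, 10.51, 10.39 and 10.32 in the surgery arrays, and 10.41, 10.32 and 10.42 in the control arrays. In both genes surgery replicate 3 was the lowest array of its group, and all 3 groups overlapped.

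The members known from other tissues stayed near background. Psma8, the alpha subunit of the testis, had levels of 4.94, 4.68 and 4.27 in the Maresin 1 arrays, 4.53, 4.52 and 4.64 in the surgery arrays, and 4.66, 4.65 and 4.67 in the control arrays. Psmb11, the beta subunit of the thymus cortex, had levels of 5.88, 5.90 and 5.78 in the Maresin 1 arrays, 6.00, 5.81 and 5.82 in the surgery arrays, and 5.71, 6.02 and 5.82 in the control arrays. Psmc3ip differed by at most 0.01 between any 2 groups. Of the assembly chaperones, Psmd9 differed by at most 0.02.

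Among the family, 6 genes had several probe sets of their own, and these had the same sign for Psma5, Psmb1, Psmb3, Psmc1 and Psmd2 in the comparison of Maresin 1 with control. Psma5 read 0.14 and 0.09, Psmb3 0.12 and 0.14, and Psmd2 0.06 and 0.10. The 3 probe sets of Psma3 read 0.01, 0.02 and -0.01. For Maresin 1 against surgery the sign differed between the probe sets of Psmb1, at 0.04 and -0.03, and of Psmd2, at -0.02 and 0.03. For surgery against control it differed for Psmb1, at -0.07 and 0.01, and for Psmc1, at 0.02 and -0.01.

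Averaged over the 39 genes, the deviation from the 9-array mean was 0.052, 0.038 and 0.033 in the Maresin 1 arrays, 0.025, 0.021 and -0.037 in the surgery arrays, and -0.030, -0.097 and -0.004 in the control arrays. The Maresin 1 arrays were the 3 highest, the lowest of them at 0.033 beside 0.025 in surgery replicate 1, and surgery and control overlapped. This order is that of the quantile-normalised levels. With arrays scaled to the same median, the family median for Maresin 1 against surgery was -0.08 and that of all genes -0.09. Control replicate 2 was the lowest array for 20 of the 39 genes, against 20.0% of all genes, and surgery replicate 3 for 6 of the 39, against 7.57%. Surgery replicates 1 and 2 were the lowest for 0 and 2 of the 39, against 5.49% and 5.46%. Control replicate 3, which shared the high choroid plexus level, was the lowest for 2 of the 39, against 7.86%. The part of the choroid plexus transcripts in the low values of control replicate 2 was not tested. Over the 9 arrays the median Pearson correlation between 2 family genes above the olfactory receptor level was 0.28, with 455 of 630 pairs above 0, where the points share arrays and groups. No such correlation was taken over all genes. The family was taken up with differences between these arrays known, so nothing is read from the correlation. The 7 alpha genes include Psma8, which lay below the olfactory receptor level and read 4.94, 4.68 and 4.27 in the Maresin 1 arrays. No mean without Psma8 was taken, so the spread of the next values is partly that of a dim gene. The mean deviation of the 7 alpha genes was 0.165, 0.062 and 0.002 in the Maresin 1 arrays, -0.009, 0.012 and -0.073 in the surgery arrays, and 0.015, -0.142 and -0.031 in the control arrays. For the regulatory particle it was 0.025, 0.026 and 0.030 in the Maresin 1 arrays, 0.033, 0.015 and -0.022 in the surgery arrays, and -0.008, -0.100 and 0.001 in the control arrays. Outside control replicate 2 the regulatory particle lay between -0.022 and 0.033.

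The proteins that work with the proteasome were read from lists of the pathway, and none of their measured members passed the test in any comparison. Of the 5 activators and inhibitor, Psme3, a nuclear activator, was 0.09 higher in surgery than in control without overlap (SE 0.05; limma, adjusted p = 0.796), and Psme1 and Psme2, the interferon-induced activator pair, differed there by -0.07 and -0.01. Among 5 measured assembly chaperones, Pomp, which matures the core particle, was 0.14 lower in surgery than in control (SE 0.07; limma, adjusted p = 0.796), and Psmg1 was 0.18 higher in the Maresin 1 group than in control (SE 0.08; adjusted p = 0.429). Medians of these lists for Maresin 1 against control were 0.03 and 0.09. With control replicate 1 as the only control, surgery against control was 0.14 for Psme3, 0.05 for Psme1, 0.00 for Psme2 and -0.19 for Pomp, so the sign turned for Psme1 and Psme2, and Maresin 1 against control was 0.17 for Psmg1.

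Nfe2l1 encodes the transcription factor that raises proteasome genes when degradation falls short. It differed by -0.05 (SE 0.05) between Maresin 1 and surgery, by -0.05 (SE 0.05) between surgery and control, and by -0.11 (SE 0.05; limma, adjusted p = 0.44) between Maresin 1 and control. Ngly1, the glycanase that acts on the Nfe2l1 protein, was 0.18 higher in surgery than in control and 0.20 higher in Maresin 1 than in control, without overlap (limma, adjusted p = 0.754 and 0.287). With control replicates 2 and 3 left out these were 0.22 and 0.23, and Nfe2l1 differed from control by -0.03 in the Maresin 1 group and by 0.03 in the surgery group. Among the 6 measured shuttle receptors, which carry ubiquitinated proteins to the proteasome, the median for Maresin 1 against control was -0.06. Ubqln4 was 0.18 lower in the Maresin 1 group than in control (SE 0.06; limma, adjusted p = 0.211) and 0.16 lower than in surgery, without overlap in either, and Zfand5 was 0.13 higher in Maresin 1 than in control (SE 0.05). Without both control replicates 2 and 3 the difference from control in the Maresin 1 group was -0.14 for Ubqln4 and 0.09 for Zfand5, and the median of the list was -0.11.

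Genes of MHC class I display and its interferon regulators, which use or control the immunoproteasome, had medians over 9 measured genes of -0.04 for Maresin 1 against surgery, 0.08 for surgery against control and 0.02 for Maresin 1 against control. Tap1, the peptide transporter encoded beside Psmb9, was 0.15 lower in Maresin 1 than in surgery without overlap (SE 0.11; limma, adjusted p = 0.886). Irf1, a transcription factor of the interferon response, was 0.23 higher in surgery than in control (SE 0.11; limma, adjusted p = 0.794). H2-K1, a heavy chain of MHC class I, was 0.32 higher in Maresin 1 than in control without overlap (SE 0.13; limma, adjusted p = 0.374). With control replicate 1 as the only control, Irf1 was 0.44 higher in surgery than in control and H2-K1 was 0.33 higher in Maresin 1 than in control. The medians of the 9 genes were then 0.20 for surgery against control and 0.14 for Maresin 1 against control.

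Related complexes were read over the same arrays. The COP9 signalosome and the translation factor eIF3 are built from relatives of lid subunits, and TRiC is the chaperonin that folds newly made proteins. Their medians for Maresin 1 against control were 0.06 for 10 COP9 genes, 0.03 for 11 eIF3 genes and 0.12 for 8 TRiC genes, beside 0.08 for the proteasome family. None of these genes passed the test. At an unadjusted p under 0.05 in limma, 3 COP9, 4 eIF3 and 3 TRiC genes were higher and 1 COP9 gene was lower, with 5.87% of all genes higher and 5.61% lower. Cops3 was 0.20 higher (SE 0.05; limma, adjusted p = 0.125), Eif3f 0.22 higher (SE 0.05; adjusted p = 0.0911) and Cct2 0.22 higher (SE 0.05; adjusted p = 0.109), each without overlap. Cops8 was 0.18 lower (SE 0.05; limma, adjusted p = 0.216), also without overlap. With control replicates 2 and 3 left out the values were 0.18 for Cops3, 0.27 for Eif3f, 0.19 for Cct2 and -0.21 for Cops8, and the medians were 0.05 for COP9, 0.05 for eIF3 and 0.07 for TRiC. The mean deviation of the TRiC genes was 0.023, 0.092 and 0.042 in the Maresin 1 arrays, 0.017, -0.006 and 0.014 in the surgery arrays, and -0.009, -0.143 and -0.029 in the control arrays. Control replicate 2 was also the lowest array for TRiC and for eIF3. No difference between the proteasome family and these complexes was tested.

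**Figure D5:**
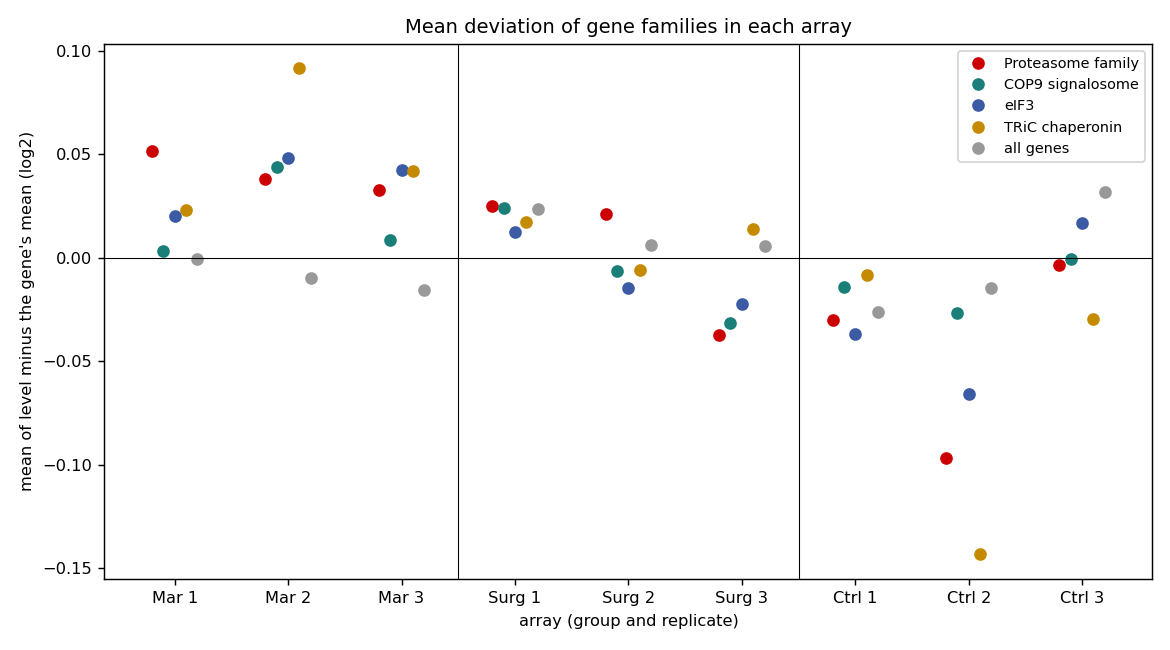
Mean over genes of the level minus the 9-array mean of each gene (log2, vertical axis) in each array (Mar, Maresin 1; Surg, surgery; Ctrl, control), for the 39 proteasome family genes, COP9 signalosome, eIF3, TRiC chaperonin and all 18820 genes. Proteasome values are 0.033 to 0.052 in the Maresin 1 arrays, -0.037 to 0.025 in the surgery arrays and -0.097 to -0.004 in the control arrays.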

How the data were processed

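Hippocampal RNA of 9 mice was profiled on arrays, and groups were taken from the sample titles. The deposited values are linear intensity per probe set, which per the submitters' processing notes the authors made with Affymetrix Expression Console. Its version and algorithm were not given in the sources used here. Medians of the deposited intensity differed between arrays, so all 35556 probe sets were quantile normalised, 16 was added and log2 was taken. Of these, 21218 name 1 gene and 21185 matched a RefSeq gene. The probe set with the highest mean stood for each of 18820 genes, with no filter on dim genes.

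Groups were compared with limma 3.58.1 in R 4.3.3, in 1 linear model over all 9 arrays with no covariate and with the variance prior fitted as a trend on the level. Calls were made at an adjusted p under 0.05, with Benjamini-Hochberg adjustment across the whole table. The model was run on simulated data with independent noise. Those data held no outlying or differently scaled arrays, unlike the arrays here. Errors of differences are standard errors, and those of levels are SDs over 3 arrays. The p-values measure the spread between arrays labelled biological replicates, and arrays have no read depth, so their number limits the precision. Replicate numbers did not pair the arrays: deviations of same-numbered arrays correlated at -0.244 to 0.055. No pair of arrays held the same value at more than 0.301% of probe sets.

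The family, the lists, the tests and the alternatives were chosen with earlier results of these data known. Named genes are members called in any comparison, the standard and immunoproteasome catalytic genes, the 4 members with the smallest p per comparison, and up to 3 genes per pathway list and comparison. Other members named were chosen after their values were seen. Start regions come from RefSeq tables of GRCm38.p6. The 21 alternatives cover normalisation, added constant, filter, probe set rule, variance prior, array weights, replicate block, groups fitted and arrays left out.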

Additional observations from a re-analysis of the deposited data

How the results depend on the processing

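Over the 21 alternatives, no gene was called between Maresin 1 and surgery. Psmd14 differed by 0.30 to 0.39 and Psma1 by 0.30 to 0.37 between Maresin 1 and control, and each remained called under 8 of the 21 alternatives. With no normalization, 43 genes and 0 of the 39 family genes were called between Maresin 1 and control, 42 genes were called between surgery and control, and 0 family genes had an unadjusted p under 0.05 in any comparison. With arrays scaled to one median, 38 genes and 0 family genes were called between Maresin 1 and control and 37 genes between surgery and control. Unadjusted, 2 family genes then passed for Maresin 1 against control and 0 for Maresin 1 against surgery. The family median was then -0.0805 for Maresin 1 against surgery (0.01 above that of all genes) and 0.19 for surgery against control, with Psma1 at -0.0191, Psmb2 at -0.0325 and Psmd14 at -0.0021 for Maresin 1 against surgery.

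For Maresin 1 against control, 0 genes were called with no trend in the variance prior, 0 with the replicate block and 0 when only the groups compared were fitted, and 0 of the family in each. Without both control replicates 2 and 3, 4 genes and 0 of the family were called. Unadjusted, 5 family genes passed without the trend and 5 with the replicate block. The replicate block gave an adjusted p of 0.153 for Psmd14 and 0.159 for Psma1 in limma. Of the 6 arrays in a comparison, 1 correlated best with its own number for Maresin 1 against surgery and 0 in the other comparisons. Psmc6 was called without control replicate 1 (adjusted p = 0.0444 in limma).

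Leaving out 1 array at a time, 0 to 245 genes and 0 to 3 of the family were called for Maresin 1 against control, and 0 to 169 genes for surgery against control. The counts of 245, 3 and 169 came without control replicate 1. Without control replicate 3, 15 genes were called for Maresin 1 against control, and without any other array 0 to 3. For counts at an unadjusted p under 0.05, no share of all genes is given under any alternative, here or above, so nothing is read from them. Unadjusted, 4 to 12 family genes passed for Maresin 1 against control, 3 to 5 for surgery against control and 2 to 7 for Maresin 1 against surgery. The 4 for Maresin 1 against control came without control replicate 2, and 5 passed without surgery replicate 2 or Maresin 1 replicate 3. For Maresin 1 against surgery, 2 passed without surgery replicate 3 and 7 without surgery replicate 1. The family medians were 0.06 to 0.10, 0.01 to 0.06 and 0.03 to 0.05 in the same order. Where a setting changes the normalisation, the variance or the replicate block, the cause of a lost call was not tested.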
